A study of Homo sapiens with 4 samples.

Results

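The protein disulfide isomerase (PDI) family was followed as 10 genes chosen by name: P4HB, PDIA3, PDIA4, PDIA5, PDIA6, ERP29, ERP44, TXNDC5, TXNDC11 and TXNDC12, thioredoxin-fold proteins of the endoplasmic reticulum (ER). All 10 were among the 56271 genes of the count table, and all 10 were among the 12205 genes that passed the filter on low values. The data are poly-A RNA sequencing of SKBR3, an established HER2-positive breast cancer line, in 2 eGFP control libraries and 2 libraries of VIRMA-overexpressing cells. VIRMA is a scaffold of the complex that writes N6-methyladenosine on RNA, and the comparison asks which transcripts differ when it is raised. Both groups carried a FUW lentiviral vector and were sorted on eGFP and expanded, so each group is transduced, sorted cells and no clone was picked in the methods. The control vector held eGFP behind the human ubiquitin C promoter, and the VIRMA vector held eGFP, a p2A sequence and then full-length VIRMA with an HA tag. Growth notes shared by the 4 libraries mention a chamber with little oxygen and protein extraction, which leaves the oxygen level of these cultures uncertain. The paper describes that chamber for cells then lysed for protein, and its RNA sequencing methods do not mention it.

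PDI family enzymes form, break and rearrange the disulfide bonds of proteins folding in the ER, so secretory and cell surface proteins depend on them. Their active sites hold a pair of cysteines spaced by a pair of other residues (Cys-X-X-Cys), which the oxidase ERO1 and peroxidases such as PRDX4 help to keep oxidised. Several of these genes are known targets of the unfolded protein response, in which ATF6 and XBP1 act on ER stress elements in promoters.

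The active sites show what the members share and where they differ. They were read as in-frame codons of the canonical GENCODE transcripts on GRCh38, 30 bases each in the sense of the RNA, with the codons of both cysteines in capitals. The first site of the family's founding member P4HB, 1 site of PDIA3, all 3 of PDIA4, and sites of PDIA5, TXNDC11 and TXNDC12 with other codons between the cysteines are shown.
P4HB site 1 (chr17:81859356-81859385, minus strand, exon 2): gccccttggTGTggccacTGCaaggctctg
PDIA3 site 2 (chr15:43769587-43769616, plus strand, exon 10): gccccttggTGTggtcacTGTaagaacctg
PDIA4 site 1 (chr7:149019176-149020974, minus strand, across exons 2 and 3): gctccatggTGTggacatTGCaagcagttt
PDIA4 site 2 (chr7:149012339-149014911, minus strand, across exons 4 and 5): gccccatggTGTggacacTGCaagaaactt
PDIA4 site 3 (chr7:149004049-149004078, minus strand, exon 10): gcgccatggTGCgggcacTGCaagcagcta
PDIA5 site 1 (chr3:123110998-123116253, plus strand, across exons 7 and 8): gccccctggTGCagcatgTGCaagaggatg
TXNDC11 site 2 (chr16:11687916-11687945, minus strand, exon 10): gctccgtggTGCggcttcTGTccatccctc
TXNDC12 site 1 (chr1:52027344-52028602, minus strand, across exons 3 and 4): aaatcctggTGTggagctTGCaaagctcta

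In each of these sites a tryptophan codon, tgg, stands before the first cysteine. PDIA4, PDIA5 and TXNDC5 each held 3 such sites, P4HB, PDIA3 and PDIA6 held 2, TXNDC11 and TXNDC12 held 1, and ERP29 and ERP44 held 0. TXNDC11 also held a second Cys-X-X-Cys without the tryptophan. The coding sequences ran from 172 codons in TXNDC12 to 958 in TXNDC11.

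The last codons carry the signal that returns soluble proteins to the ER, and are shown for a soluble enzyme, for ERP44, which itself uses this signal to cycle between the Golgi and the ER, and for TXNDC11, which is membrane-anchored. The last 4 codons before the stop are in capitals.
P4HB (chr17:81844015-81844041, minus strand): gatcagaaagctgtgAAAGATGAACTG
ERP44 (chr9:99982615-99982641, minus strand): actctattgagggatCGAGATGAGCTT
TXNDC11 (chr16:11679198-11679224, minus strand): gaaaggaataaggagAACAGGACAGAC

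The coding sequence ended in a glutamate and then a leucine codon in 8 members. The exceptions to this pattern were TXNDC11 and PDIA3, whose last codons are CAGGAGGATCTC, with an aspartate codon before the leucine codon. The pattern describes codons only and does not show that PDIA3 lacks the signal.

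In VIRMA-overexpressing cells 6 of the 10 members rose and 0 fell. PDIA4, ERP44 and PDIA3 had the largest differences, at 1.50-fold, 1.40-fold and 1.36-fold, followed by PDIA6, PDIA5 and TXNDC11. P4HB and ERP29, both highly expressed, differed by less than the spread between replicates, and TXNDC12 and TXNDC5 did not pass. No member doubled. The rule was an adjusted p below 0.05 in edgeR's quasi-likelihood test, by which 35.1% of all tested genes were higher and 35.9% lower, or 71% in either direction. Past the further threshold of 2-fold, edgeR, DESeq2 and limma-voom each called 0 members, adjusted or not, against 4.52% of all tested genes higher and 2.93% lower. The same 3 tools called 0 members lower at an unadjusted p below 0.05. The members' median log2 fold change was 0.22, against 0.01 over all tested genes, while the median size of change regardless of sign was 0.22 in the members and 0.34 over all tested genes. The p-values measure the spread between 2 libraries a group, described as biological duplicates. Whether duplicates were transduced and sorted separately is not given in the sources used here, and a difference between the sorted cells and an effect of VIRMA cannot be told apart if they were not.

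**Figure D1:**
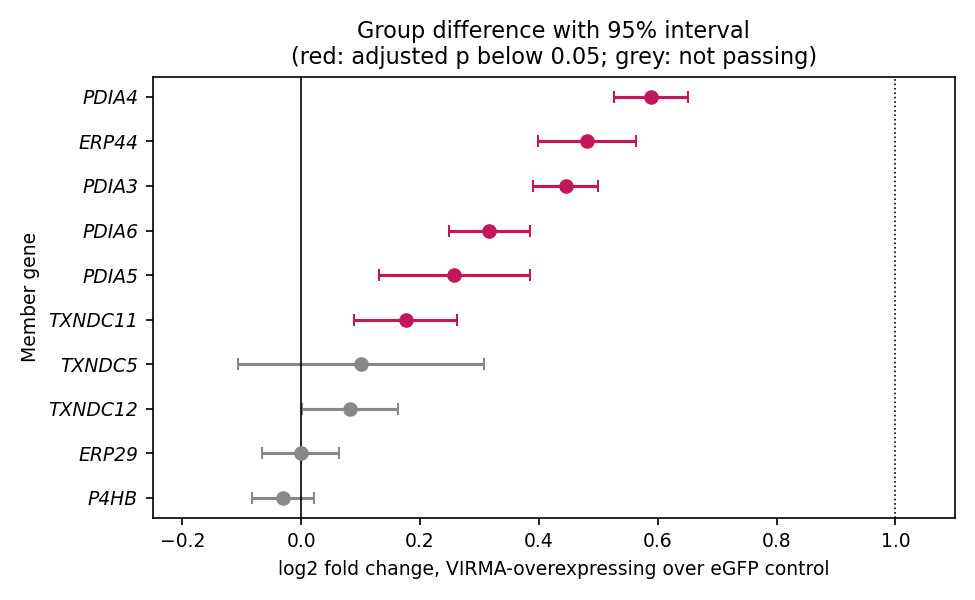
Log2 fold change of each member, VIRMA-overexpressing over eGFP control (x axis), with its 95% interval from the edgeR fit over 2 libraries a group; the dotted line marks 2-fold. The 6 members in red passed at an adjusted p below 0.05, all to the right of 0, and the 4 in grey did not.

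VIRMA itself, listed as KIAA1429, had 710 and 682 counts in the controls against 3437 and 3460 when overexpressed, a log2 fold change of 2.29 (standard error 0.0685, edgeR adjusted p 9.74e-26). The library totals were 81446932 to 86375474 counts. Of 8 genes listed as markers of SKBR3, 7 were tested. The summed level of the list was 6432 to 6728 RPKM across the libraries, but 3 genes were higher with VIRMA and 3 lower. The keratin KRT7 was at 0.49 and GRB7, the neighbour of ERBB2, at 0.43 on the log2 scale, while KRT8 was at -0.51 and EPCAM at -0.39, differences of the size of those of PDIA3 and PDIA4. ERBB2, the gene of HER2, was the tested marker that did not pass, at 672 to 688 RPKM. CDH1, which encodes E-cadherin, was the listed gene that was not tested. It had 5 to 33 counts, so it does not serve as a marker of these cells. ESR1 and PGR, the hormone receptors that this line is known to lack, summed to 0.021 to 0.041 RPKM. Of 5 markers of other cells, VIM, PECAM1 and PTPRC had at most 34 counts in any library and COL1A1 713 to 1119. HBB was at 2137 and 1543 counts in eGFP cells against 0 in both libraries with VIRMA, which set the summed level of these markers at 23.3 and 17.1 against 0.922 and 0.974 RPKM. Their part in the results was not tested. In bulk RNA, fewer cells of a kind and less RNA per cell cannot be told apart.

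The members spanned a wide range of levels. Levels are given as RPKM, the counts per kilobase of exon and scaled to library size after TMM normalization. P4HB was highest, at 354.9 and 336.9 RPKM in eGFP cells against 340.4 and 336.7 with VIRMA. PDIA3 came next, followed by PDIA4, ERP29, PDIA6 and TXNDC12. TXNDC11, ERP44 and PDIA5 lay between 6.23 and 16.8 RPKM. TXNDC5 was lowest, at 2.12 to 2.56 RPKM, but 60.6% of its exonic bases are also exons of the read-through gene BLOC1S5-TXNDC5, which had 0 counts in every library. With 0 counts there, no read in the shared exons was counted for both genes. Whether such reads were left out is not given in the sources used here. If they were, the RPKM of TXNDC5 is too low, as it is divided by the full exonic length. The level of TXNDC5 and its place at the bottom are therefore uncertain.

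The order of levels was the same in both groups except for 1 exchange. In the controls TXNDC11 (12.4 and 12.5 RPKM) stood just above ERP44 (11.7 and 12.2), a gap of the size of the ERP44 replicate spread. In the VIRMA-overexpressing libraries ERP44 (16.8 and 16.5) stood above TXNDC11 (14.0 and 14.1), with a gap well beyond either spread. All neighbours in the order, this pair included, kept both libraries of the higher gene above both of the lower one in each group.

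**Figure D2:**
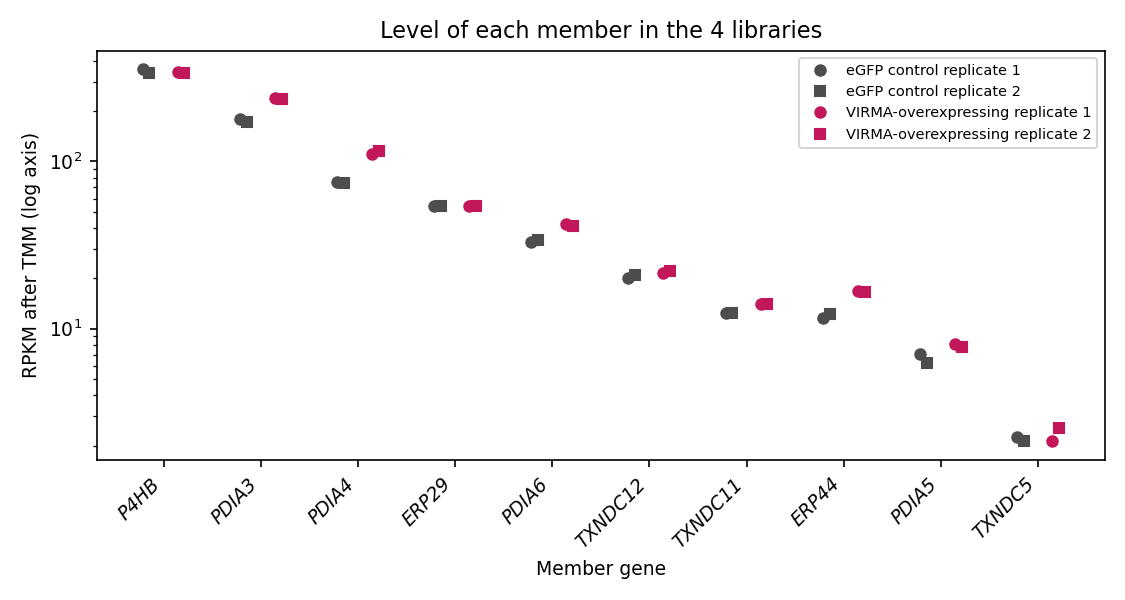
RPKM after TMM scaling (y axis, log scale) of each member (x axis, ordered by the control mean) in the 2 eGFP control libraries (grey) and the 2 VIRMA-overexpressing libraries (red); circles are replicate 1 and squares replicate 2. P4HB lies near 340 RPKM in both groups, while PDIA3, PDIA4, PDIA6 and ERP44 lie higher in red, without overlap.

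PDIA4 (ERp72; chr7:149003062-149028641, minus strand), which carries 3 catalytic domains and is found in chaperone complexes with HSPA5, had the largest difference. It had 20658 and 20409 counts in eGFP cells against 31199 and 31430 in the VIRMA-overexpressing libraries. The gap between the groups was many times that between replicates. The level was 246.1 ± 3.20 CPM in the controls and 370.2 ± 8.23 CPM with VIRMA (SD, n = 2 each, CPM being counts scaled by TMM library size), a log2 fold change of 0.59 (standard error 0.0305, edgeR adjusted p 9.71e-19). Even so, 14.4% of all tested genes had a higher log2 fold change. No other gene of the table shares its exons.

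PDIA3 (ERp57; chr15:43746392-43773279, plus strand) works with the lectins calnexin and calreticulin on glycoproteins. It had 62891 and 60835 counts in eGFP cells against 86612 and 84202 in the VIRMA-overexpressing libraries, or 741.5 ± 20.7 against 1009 ± 2.97 CPM. Both libraries with VIRMA were well above both controls, with a log2 fold change of 0.44 (standard error 0.0271, edgeR adjusted p 9.81e-17). Its pseudogene PDIA3P1 had 252 to 305 counts in any library and PDIA3P2 had 17 to 60, so reads assigned to these copies are few beside those of PDIA3. The treatment of reads that align to more than 1 place is not given in the sources used here.

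PDIA6 (P5; chr2:10783391-10837977, minus strand), which binds HSPA5 and is known to dampen the stress sensors IRE1 and PERK, had 11253 and 11577 counts in eGFP cells against 14814 and 14027 with VIRMA. The groups did not overlap, at 136.8 ± 2.14 against 170.4 ± 3.68 CPM and a log2 fold change of 0.32 (standard error 0.0333, edgeR adjusted p 1.70e-10). Of its exonic bases, 25.2% lie opposite exons of ATP6V1C2, which had 1694 to 2184 counts. Whether counting used strand is not given in the sources used here.

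PDIA5 (PDIR; chr3:123067062-123225227, plus strand), another enzyme with 3 catalytic sites, had 2362 and 2100 counts in eGFP cells against 2810 and 2603 with VIRMA. Its control replicates stood further apart than those of most members, at 26.7 ± 2.34 CPM against 32.0 ± 1.19 CPM. The log2 fold change was 0.26 (standard error 0.0626, edgeR adjusted p 0.000447), and it ran from 0.17 to 0.35 when 1 library was left out. The exons of SEC22A on the same strand share 12.2% of its exonic bases.

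P4HB (PDI; chr17:81843159-81860694, minus strand) is the founding enzyme of the family and also the beta subunit of collagen prolyl 4-hydroxylase. It had 156549 and 149520 counts in eGFP cells against 154580 and 149267 with VIRMA, so that the groups overlap. The levels were 1834 ± 67.7 and 1795 ± 13.9 CPM, with a log2 fold change of -0.03 (standard error 0.0255, edgeR adjusted p 0.279). The 95% interval of the fold, 0.944 to 1.01, leaves out a rise of the size seen in PDIA3 or PDIA4. Under the 3 looser filters on low counts, which shift all genes down slightly, P4HB passed as lower, at -0.061 to -0.075.

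TXNDC5 (ERp46; chr6:7881517-7910814, minus strand), an oxidase of nascent proteins with 3 catalytic sites, had 822 and 780 counts in eGFP cells against 801 and 940 with VIRMA. 1 library with VIRMA lies between the controls and the other above them, and the log2 fold change was 0.10 (standard error 0.102, edgeR adjusted p 0.382). The 95% interval of the fold, 0.929 to 1.24, does not separate no difference from a rise like that of TXNDC11. Without VIRMA-overexpressing replicate 2 the value was -0.038.

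ERP44 and ERP29 lack the paired-cysteine site. ERP44 (chr9:99979179-100099040, minus strand) retains ERO1 and unassembled secretory proteins by catching them in the early Golgi. It had 4705 and 4951 counts in eGFP cells against 6981 and 6689 with VIRMA, which put both VIRMA-overexpressing libraries far above both controls. The level was 57.9 ± 1.83 against 80.8 ± 1.07 CPM, a log2 fold change of 0.48 (standard error 0.0408, edgeR adjusted p 7.90e-13).

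ERP29 (chr12:112013316-112023451, plus strand), a redox-inactive chaperone that escorts secretory proteins, had 13870 and 13998 counts in eGFP cells against 14248 and 13990 with VIRMA. After scaling, 167.0 ± 0.346 CPM stood against 166.9 ± 0.682 CPM, with overlapping groups. The log2 fold change was -0.001 (edgeR adjusted p 0.976) and the 95% interval of the fold was 0.955 to 1.05. With library totals in place of TMM it was 0.082 and passed. The pseudogene ERP29P1 had 6 to 42 counts.

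TXNDC11 (chr16:11679080-11742878, minus strand), known as a partner of the DUOX oxidases, had 4414 and 4491 counts in eGFP cells against 5137 and 5065 with VIRMA. These replicates were close, at 53.4 ± 0.417 against 60.3 ± 0.424 CPM, and the log2 fold change of 0.18 (standard error 0.0428, edgeR adjusted p 0.000454) was the smallest that passed. Its partners were near 0, with 7 to 23 counts for DUOX1 and 0 to 5 for DUOX2.

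TXNDC12 (ERp18; chr1:52020131-52056171, minus strand), a small single-domain member, had 6103 and 6345 counts in eGFP cells against 6666 and 6695 with VIRMA. The groups did not overlap, but the log2 fold change of 0.08 (standard error 0.0394, edgeR adjusted p 0.0618) did not pass. The 95% interval of the fold was 1.00 to 1.12. It passed as higher with the replicate number as a block (edgeR adjusted p 0.0489), without eGFP control replicate 2 (0.0493), and at 0.15 and 0.17 on the log2 scale with upper-quartile factors and library totals. It shares 8.8% of its exonic bases with KTI12 on the same strand, a gene with 1379 to 1791 counts.

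Over the members, both VIRMA-overexpressing libraries lay above both controls in CPM for 7 genes and below for 0, against 42.7% and 41.6% of all tested genes. The number of catalytic sites did not line up with the difference. The members with 3 sites had log2 fold changes of 0.59, 0.26 and 0.10, those with 2 had 0.44, 0.32 and -0.03, those with 1 had 0.18 and 0.08, and those with 0 had 0.48 and -0.001.

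Ratios between members of the same library do not depend on how libraries are scaled. Per 100 counts of P4HB, PDIA4 had 13.2 and 13.7 counts in eGFP cells against 20.2 and 21.1 with VIRMA. PDIA3 had 40.2 and 40.7 against 56.0 and 56.4, and ERP44 had 3.01 and 3.31 against 4.52 and 4.48. In these 3 genes, and in PDIA6, PDIA5, TXNDC11 and TXNDC12, both VIRMA-overexpressing libraries lay above both controls. The share of all tested genes that would do so in a ratio to P4HB was not computed. All these ratios have the same P4HB counts as divisor, so they are not separate from one another. ERP29, at 8.86 and 9.36 against 9.22 and 9.37, and TXNDC5 overlapped. The ratio of the group means ran from 1.02 for ERP29 to 1.54 for PDIA4.

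**Figure D3:**
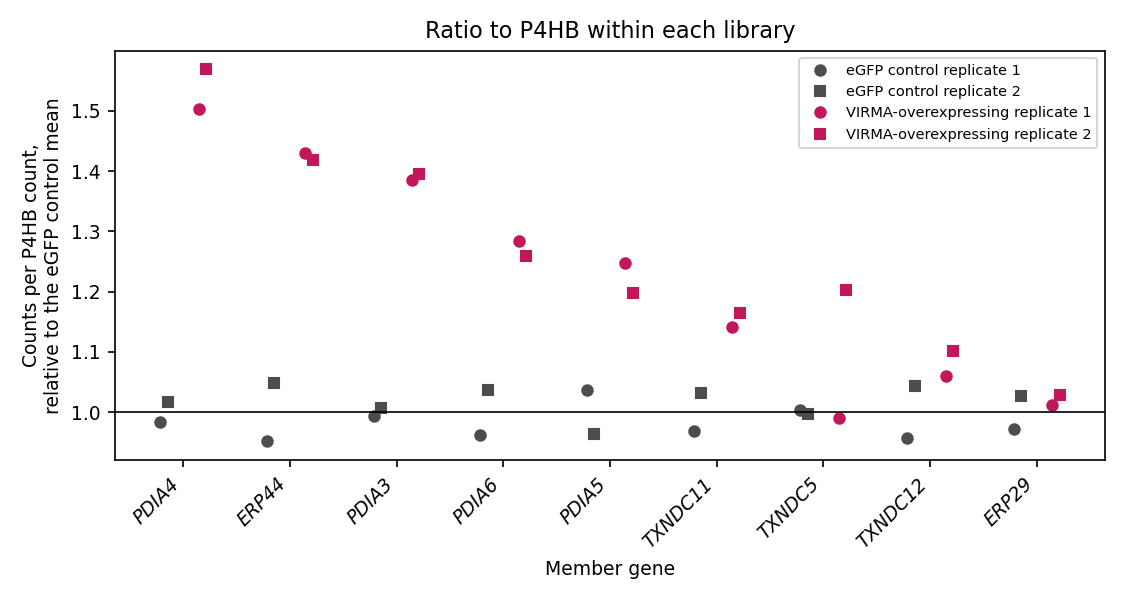
Counts of each member per count of P4HB in the same library, divided by the mean of the 2 eGFP control libraries (y axis), by member (x axis); grey marks controls, red VIRMA-overexpressing libraries, circles replicate 1 and squares replicate 2. PDIA4 reached about 1.5 in both red libraries, while ERP29 and TXNDC5 overlap the controls.

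The make-up of the family's RNA differed accordingly. P4HB supplied 47.3% and 46.5% of the 10 members' summed RPKM in eGFP cells against 40.1% and 39.8% with VIRMA. PDIA3 supplied 23.8% and 23.7% against 28.1% and 28.0%, and PDIA4 10.1% and 10.3% against 13.1% and 13.5%. The groups did not overlap in these shares or in those of PDIA6, ERP44, ERP29 and TXNDC12, while the shares of PDIA5, TXNDC5 and TXNDC11 overlapped. The shares are parts of the same whole, so they are not separate from one another. ERP29 supplied 7.22% and 7.49% against 6.36% and 6.41%, although its own level overlapped between the groups. The summed level was 737.2 ± 17.7 RPKM in the controls and 848.0 ± 1.16 with VIRMA (SD, n = 2), a ratio of 1.15. Without P4HB it was 391.3 ± 4.94 against 509.4 ± 1.46 RPKM, a ratio of 1.30. An exact two-sided permutation test gave p = 0.333 for each sum, the smallest value that 2 libraries against 2 allow. With library totals in place of TMM the ratio of the full sums was 1.219, an alternative added after the values were seen.

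Promoters were compared because several of these genes are described as targets of ATF6 and XBP1. RefSeq windows on GRCh38.p14, from 250 bases before the gene start to 50 after it, were found for 9 of the 10 members, in 13 windows; PDIA3 was not among them. Motifs were searched on both strands as exact matches. A member was counted if any of its windows matched, whereas the shares are per window. Counts of members and shares of windows are therefore not on the same scale. The ER stress element of CCAAT and CCACG spaced by 9 bases was found in 1 member, PDIA6, and in 0.0769% of all 35116 windows. The element TGACGTGG was found in TXNDC5 and TXNDC11, and in 0.729% of all windows. These matches are shown with the letters fixed by the motif in capitals.
PDIA6 (chr2:10812849-10812875, minus strand): cggaCCAATgagccgcagCCACGgctt
TXNDC5 (chr6:7910158-7910173, minus strand): cggcTGACGTGGcgct
TXNDC11 (chr16:11742841-11742856, minus strand): cggcTGACGTGGagcg

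The PDIA6 match starts at -86 relative to the gene start of its window, and the TXNDC5 match at -92. The TXNDC11 match starts at 5, after the gene start. The gene start of the PDIA6 window, 10812785, lies inside the PDIA6 gene of the count table, which starts at 10837977 on the minus strand. The element of ATTGG and CCACG spaced by 1 base and TGATGNAA, a core of sites for ATF4, were found in 0 member windows, and in 0.0541% and 3.62% of all windows. The short part CCACG, contained in 2 of the longer motifs and overlapping TGACGTGG on its other strand, was found in 7 members and in 38.1% of all windows. P4HB, PDIA4, PDIA5, ERP29, ERP44 and TXNDC12 held none of the 4 longer motifs within these windows. The gene starts of the PDIA4 windows, 149028490 and 149025309, also lie inside its gene of the count table, which starts at 149028641. A match describes letters and not binding, and the part of these motifs in the differences was not tested.

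Of 12 further proteins of the family, 8 were tested, of which 3 rose, 3 fell and 2 did not pass, with a median log2 fold change of -0.16. The counts of this list and of those below stand against 35.1% of all tested genes higher and 35.9% lower. DNAJC10 (ERdj5), the ER reductase that opens disulfides of proteins bound for degradation, had 3908 and 4015 counts in eGFP cells against 9603 and 9228 with VIRMA. Its log2 fold change of 1.23 (standard error 0.0395, edgeR adjusted p 7.52e-25) exceeded that of each of the 10 members and was, beside HSPA5, the only one of these lists past both thresholds under TMM. AGR2, which is needed for mucin folding and is common in luminal breast cancer, had 9058 and 9408 against 18318 and 18296 counts, a log2 fold change of 0.97 (standard error 0.0334, edgeR adjusted p 6.70e-24). AGR2 also passed both thresholds with upper-quartile factors (1.04) and library totals (1.05). The membrane-anchored thioredoxins went both ways. TMX3 rose by 0.33 on the log2 scale (edgeR adjusted p 7.48e-06), whereas TMX1 fell by 0.45 (edgeR adjusted p 1.02e-06) and TMX2 fell by 0.29 (edgeR adjusted p 3.94e-09). ERP27, a non-catalytic member named after its value was seen, fell by 0.58 (edgeR adjusted p 0.00625), but did not pass without VIRMA-overexpressing replicate 1 (-0.45). PDIA2, PDILT, AGR3 and TMX4 were under the filter, with 0 counts of PDILT in every library.

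Of 9 genes listed as oxidases and peroxidases, 6 were tested, of which 1 rose and 4 fell, with a median of -0.25. The gene that rose was ERO1A, the main PDI oxidase, with 2604 and 2528 counts in eGFP cells against 2944 and 2922 with VIRMA. Its log2 fold change was 0.17 (edgeR adjusted p 0.00618); it was named after its value was seen, and did not pass with no filter (0.14), filterByExpr (0.13) or without eGFP control replicate 2 (0.15). PRDX4, the ER peroxiredoxin, had 9841 and 10236 counts against 7371 and 7196 and fell by 0.48 on the log2 scale (standard error 0.0364, edgeR adjusted p 3.52e-14). VKORC1, the vitamin K epoxide reductase, fell by 0.78 (standard error 0.107, edgeR adjusted p 6.09e-08), its paralog VKORC1L1 by 0.35 (edgeR adjusted p 2.91e-09) and the sulfhydryl oxidase QSOX1 by 0.14 (edgeR adjusted p 0.000347). For QSOX1 the call was lost with upper-quartile factors and with library totals. ERO1B, GPX7 and GPX8 were under the filter. The ER peroxidase GPX8 had 117 and 104 counts against 328 and 304, with a log2 fold change of 1.46 when no filter was used (edgeR adjusted p 6.20e-12), and ERO1B had 217 and 259 against 510 and 425.

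Among 10 binding partners and shared subunits, 6 were tested, of which 3 rose and 2 fell, with a median of 0.11. The lectins that present glycoproteins to PDIA3 rose with it: CALR had 78336 and 78070 counts in eGFP cells against 117757 and 115207 with VIRMA, a log2 fold change of 0.55 (standard error 0.0254, edgeR adjusted p 2.65e-20). CANX rose by 0.32 (standard error 0.0272, edgeR adjusted p 1.14e-12). HSPA5 (BiP), the ER Hsp70 that PDIA6 and PDIA4 associate with, was at 1.43 (standard error 0.0262, edgeR adjusted p 3.78e-32), a difference well above that of any of the 10 members. TAPBP (tapasin), which holds PDIA3 in the MHC class I loading complex, fell by 0.35 on the log2 scale (standard error 0.0350, edgeR adjusted p 7.22e-11), opposite in direction to PDIA3. P4HA1, the catalytic partner of P4HB in collagen prolyl 4-hydroxylase, fell by 0.10 (edgeR adjusted p 0.0103) and lost the call with upper-quartile factors, with library totals, and without eGFP control replicate 1 or VIRMA-overexpressing replicate 2. P4HA3, MTTP, DUOX1 and DUOX2 were under the filter.

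Thioredoxin and glutaredoxin proteins outside the ER were lower on balance. Of 12 genes 11 were tested, of which 1 rose, 7 fell and 3 did not pass, with a median of -0.32. Of all tested genes, 35.1% were higher and 35.9% lower. TXN, the cytosolic thioredoxin, had 21230 and 21579 counts in eGFP cells against 14231 and 13415 with VIRMA, and fell by 0.65 on the log2 scale (standard error 0.0320, edgeR adjusted p 2.09e-19). Its mitochondrial counterpart TXN2 fell by 0.43 (edgeR adjusted p 4.28e-13), the cytosolic reductase TXNRD1 by 0.32 (edgeR adjusted p 1.40e-10) and the mitochondrial glutaredoxin GLRX5 by 0.56 (edgeR adjusted p 4.48e-13). The gene that rose was GLRX, the cytosolic glutaredoxin, at 0.55 (edgeR adjusted p 5.54e-08), named after its value was seen. NXN was under the filter.

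**Figure D4:**
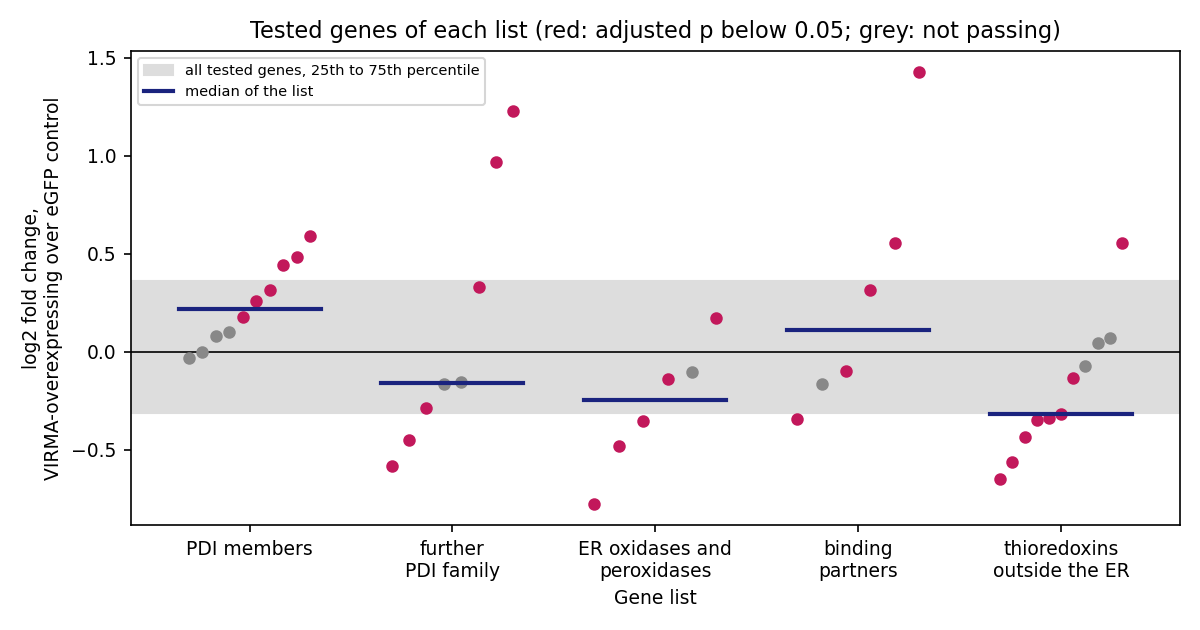
Log2 fold change of every tested gene of the 5 lists (y axis), VIRMA-overexpressing over eGFP control, by list (x axis), with the median of each list as a blue line and the middle range of all tested genes, from the 25th to the 75th percentile, in grey; red points passed at an adjusted p below 0.05. The medians were 0.22 for the 10 members and -0.32 for the thioredoxin proteins outside the ER.

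ERO1A and P4HA1 are also known as hypoxia-induced genes, and the labels name low oxygen. Of 9 other hypoxia-induced genes 6 were tested, of which 1 was higher, 4 were lower and 1 did not pass. The gene that was higher was VEGFA, at 1.28 on the log2 scale (edgeR adjusted p 1.05e-28). CA9, PDK1 and ANKRD37 were under the filter, with 5 to 22 counts of CA9. The summed level of all 9 was 244.5 and 248.8 RPKM in the controls and 173.8 and 174.6 with VIRMA. Most of that sum was LDHA, at 177.3 and 181.9 RPKM in the controls against 98.7 and 98.9 with VIRMA. The sum therefore does not describe the other genes. The part of oxygen in the members' differences was not tested.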

How the data were processed

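Poly-A RNA of 4 SKBR3 libraries (2 eGFP control, 2 VIRMA-overexpressing) was sequenced with a stranded kit. The authors trimmed reads with Trimmomatic 0.39, aligned them to hg38 with STAR and summarised them by gene with featureCounts. The deposited table holds raw counts. Strand setting and treatment of multi-mapping reads are not given in the sources used here. The control columns name their group. The other columns show only a number, so they were taken as VIRMA-overexpressing by elimination, and VIRMA counts were checked.

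RPKM was computed from the counts, and genes with RPKM above 1 in at least 2 libraries were tested by quasi-likelihood in edgeR 4.0.16 (R 4.3.3), with TMM scaling, group as the only term, Benjamini-Hochberg adjustment over all tested genes. The study used DESeq2; DESeq2 1.42.0 and limma-voom (limma 3.58.1) were alternatives, with other scalings, filters, a replicate block and each library left out. The standard error is the log2 fold change divided by the square root of F. RPKM lengths are the deposited exonic lengths, which join all isoforms. Members and lists were chosen with earlier results of these data known. Genes past both thresholds, up to 4 others in order of adjusted p, and untested genes of each list were named; exceptions are marked. Gene coordinates are those of the deposited table. No protein sequences were used.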

Additional observations from a re-analysis of the deposited data

How the results depend on the processing

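Of the 10 members, PDIA3, PDIA4, PDIA5, PDIA6, ERP44 and TXNDC11 passed as higher under all 9 alternatives that gave a test and with each library left out. The count of higher members was 6 to 8. The count of lower members was 1 in place of 0 with no filter, filterByExpr or at least 10 counts in every library, and 0 to 1 with a library left out; the gene was P4HB, which also passed without eGFP control replicate 2. These filters shift the genes they share by -0.034, -0.044 and -0.030. No member passed both thresholds under any alternative, including glmTreat against 2-fold. The members' median was 0.289 with upper-quartile factors, 0.30 with library totals, 0.183 with no filter, 0.173 with filterByExpr and 0.187 with a minimum of 10 counts per library; it ran from 0.177 to 0.232 with a library left out. The 2 scalings shift all genes by 0.0715 and 0.0835. Under them P4HB reversed to 0.041 and 0.052 and ERP29 to 0.070 and 0.082. With a library left out, P4HB ran from -0.069 to 0.0027, ERP29 from -0.0078 to 0.0030, TXNDC5 from -0.038 to 0.23 and VIRMA from 2.25 to 2.32; there the lone library is assumed to vary like the others. The labels give same-numbered libraries only a shared number, and their deviations correlated at 0.0755 over genes. A low correlation over all genes cannot exclude a batch shared by such libraries. Under the replicate block 7 members were higher, TXNDC12 at 0.082 being the addition.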
